A study of Mus musculus with 8 samples.

Results

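The transcripts of 10 genes for dual-specificity phosphatases are described here, Dusp1, Dusp3, Dusp4, Dusp6, Dusp7, Dusp10, Dusp14, Dusp15, Dusp16 and Dusp26, out of 19938 genes that had a probe set of their own. The genes were chosen by name with results of these same arrays in view, and every one of them differed between day and night, so their day-night differences are descriptions: standard errors, intervals and counts past the threshold of the fit are printed for them, and none is offered as evidence. Which measured values entered the choice is not recorded. The mean over the 8 arrays chose the probe set where a gene had more than 1, which happened for none of the 10. Each had 1 probe set, and all 10 lay above the log2 level of 6.82 that was asked of a gene for testing, as did 12452 genes in all.

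Dual-specificity phosphatases remove phosphate from both threonine and tyrosine residues. The best known of them, the MAP kinase phosphatases, switch off the kinases ERK, JNK and p38 by stripping both residues of the activation loop, and many of their genes are themselves switched on by MAP kinase or cAMP signalling, which makes them feedback regulators. The suprachiasmatic nucleus (SCN) of the hypothalamus is the central circadian pacemaker of mammals. There, ERK activity follows the circadian cycle and responds to light, and cAMP and CREB drive part of the clock's own transcription.

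RNA from the SCN of C57BL/6J mice was measured on whole-transcript expression arrays in 4 groups: wild type at circadian time 6 (CT6), wild type at CT18, Gpr176-/- at CT6 and Gpr176-/- at CT18. Gpr176 is the gene of an orphan G protein-coupled receptor found in the SCN. All animals had lived on 12 h light and 12 h dark for over 2 weeks and were sampled in constant darkness, where CT6 lies in the subjective day and CT18 in the subjective night; arrays of these times are called day and night arrays. Each group had 2 arrays, A and B, each with laser-microdissected tissue pooled from 10 animals, so the spread between arrays is that between pools. Ages, and which part of Gpr176 was deleted, are not given in the sources used here.

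Gpr176 itself was lower in the knockout by 1.30 on the log2 scale (difference -1.30 ± 0.0491, standard error of the fit), with the 4 knockout arrays between 8.02 and 8.56 and the 4 wild-type arrays between 9.31 and 9.87. All 9 markers of SCN neurons looked at were above the level filter, with Avp between 10.69 and 11.83, Vip between 11.56 and 11.78 and the SCN transcription factor Six6 between 9.56 and 9.75. Markers of other cells were present too, with mean log2 levels between 9.16 and 9.51 for 11 oligodendrocyte genes, 10.71 and 10.92 for 9 astrocyte genes, 7.91 and 8.13 for 10 endothelial and mural genes, and 7.55 and 7.69 for 8 microglial genes. The mean of 11 leptomeningeal genes was highest on wild type at CT18 A (8.24) and knockout at CT6 A (8.20) and lay between 7.55 and 8.00 on the other 6 arrays. In tissue of several cell types, fewer cells of a type and less RNA per cell cannot be told apart.

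At CT18, 8 of the 10 phosphatase transcripts were lower than at CT6 and 2 were higher, in both genotypes. Dusp4 had a fitted level 4.63-fold lower at night, where its arrays lay under the level filter, and 3.82-fold lower with the filter level set in place of the night level. Dusp1 was 1.95-fold lower, Dusp10 1.60-fold and Dusp16 1.57-fold. The 2 that were higher at night, Dusp6 (1.23-fold) and Dusp7 (1.30-fold), encode cytoplasmic phosphatases that act on ERK. For every one of the 10 the 4 arrays at CT18 did not overlap the 4 arrays at CT6, which held for 21% of all genes tested. All 10 passed the adjusted p of 0.05 in limma over both genotypes, against 16.8% of genes tested (10% higher and 6.79% lower). Because the genes are treated as chosen with this contrast known, nothing is read from that count. Without the 2 arrays highest in leptomeningeal genes, 9 passed and Dusp6 (0.22 log2) did not. The median of the 10 differences was -0.39 log2, where the median of all genes tested was 0.01.

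**Figure D1:**
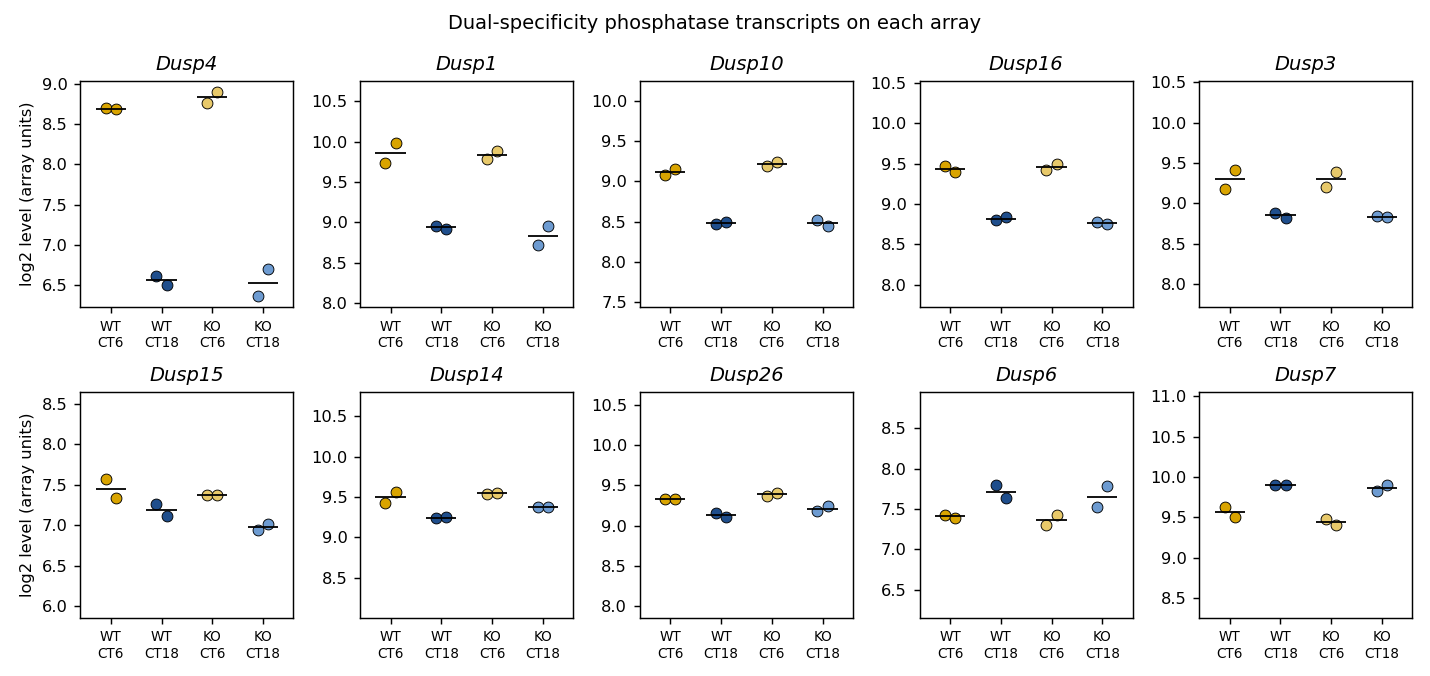
Log2 level (array units, after quantile normalization) of the 10 phosphatase transcripts on each of the 8 arrays; each point is 1 array with tissue of 10 animals, the line is the mean of the 2 arrays, WT is wild type, KO is Gpr176-/-, and every panel spans the same number of log2 units. The 8 panels from Dusp4 to Dusp26 show both CT18 groups under both CT6 groups, and Dusp6 and Dusp7 show them above.

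Dusp4 and Dusp1 encode nuclear MAP kinase phosphatases that are induced as immediate early genes by the signals they go on to restrain. The log2 level of Dusp4 was 8.69 and 8.68 on the wild-type day arrays and 6.62 and 6.50 on the wild-type night arrays. In Gpr176-/- mice the day arrays read 8.76 and 8.90 and the night arrays 6.36 and 6.70. All 4 night arrays lay under the level filter, so Dusp4 was tested through its day level. The fitted day-night difference was -2.21 ± 0.0712 over both genotypes, and -1.94 with the filter level in place of the night level; the fit gave -2.13 ± 0.101 in wild type and -2.30 ± 0.101 in the knockout.

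Dusp1 read 9.74 and 9.99 on the wild-type day arrays and 8.96 and 8.92 on the wild-type night arrays, and in Gpr176-/- mice 9.79 and 9.89 by day and 8.72 and 8.96 by night. Its difference was -0.96 ± 0.0681 over both genotypes, and the 95% interval was -1.14 to -0.71 in wild type and -1.22 to -0.78 in Gpr176-/- mice. Of the other nuclear inducible phosphatases, Dusp2 was under the level filter on all arrays (6.43 to 6.60), and Dusp5 gave a difference of 0.00 (95% interval -0.11 to 0.11, limma adjusted p = 0.988).

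The promoter of Dusp1 is shown because it is the only one of the members' windows that held a full cAMP response element (CRE), the site bound by CREB. RefSeq windows of GRCm38.p6, from 250 bases before to 50 after the gene start, were found for 7 of the 10 genes and searched on both strands; Dusp4, Dusp15 and Dusp26 had no entry. In the stretch of Dusp1 from chr17:26508583-26508673 on the minus strand, 201 to 111 bases before the start, capitals mark the CRE core TGACG, the full CRE TGACGTCA (which contains the core on each strand) and the E-box CACGTG, the site bound by CLOCK and BMAL1. In the stretch of Dusp16 from chr6:134792684-134792708 on the minus strand, 80 to 56 bases before the start, capitals mark the single CRE core found there.
Dusp1: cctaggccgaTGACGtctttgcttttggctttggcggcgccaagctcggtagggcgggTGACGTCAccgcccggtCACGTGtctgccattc
Dusp16: tggtttcaagTGACGccatctcttt

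The CRE of Dusp1 began 143 bases before the start and its E-box 126 bases before it. Over all 32851 windows of the table, 1.79% held the CRE, 20.8% the core and 7.15% the E-box. Neither form of the D-box searched, TTATGTAA (0.938% of windows) and TTACGTAA (0.119%), was found in any of the 7. The windows of Dusp3, Dusp6, Dusp7, Dusp10 and Dusp14 held none of the motifs searched. A match is a run of letters and was not tested as a site, and elements outside these windows were not looked at.

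Dusp10 and Dusp16 encode MAP kinase phosphatases that act mainly on JNK and p38. Dusp10 read 9.08 and 9.16 on the wild-type day arrays and 8.47 and 8.49 on the wild-type night arrays, and in Gpr176-/- mice 9.18 and 9.24 by day and 8.52 and 8.45 by night. Dusp16 read 9.47 and 9.40 (wild type, day), 8.80 and 8.85 (wild type, night), 9.42 and 9.49 (Gpr176-/-, day) and 8.77 and 8.76 (Gpr176-/-, night). Both genes were high on all 4 day arrays and low on all 4 night arrays, and the arrays of a group lay close together. The differences over both genotypes were -0.68 ± 0.0402 for Dusp10 and -0.65 ± 0.0391 for Dusp16 (95% intervals -0.77 to -0.59 and -0.74 to -0.56). Dusp8, the remaining phosphatase of this class, differed by -0.00 ± 0.0365 (limma adjusted p = 0.977), with all 8 arrays between 9.57 and 9.68.

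Dusp6 and Dusp7 encode cytoplasmic phosphatases that bind ERK and inactivate it, and Dusp6 is a standard readout of ERK signalling. Dusp7 read 9.62 and 9.50 on the wild-type day arrays and 9.90 on both wild-type night arrays, and in Gpr176-/- mice 9.48 and 9.41 by day and 9.82 and 9.90 by night. Its difference was 0.38 ± 0.0428 over both genotypes, with 0.34 ± 0.0605 in wild type and 0.42 ± 0.0605 in the knockout. Dusp6 read 7.43 and 7.39 (wild type, day), 7.80 and 7.63 (wild type, night), 7.31 and 7.43 (Gpr176-/-, day) and 7.52 and 7.78 (Gpr176-/-, night). Its day and night arrays did not overlap, but the night arrays of either genotype lay further apart than those of Dusp7. The difference of Dusp6 was 0.30 ± 0.0642 over both genotypes, 0.31 ± 0.0908 in wild type and 0.28 ± 0.0908 in the knockout. Dusp9, the other ERK phosphatase of this kind, lay under the filter with a mean of 6.78.

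Dusp3, Dusp14, Dusp15 and Dusp26 encode small atypical phosphatases that lack the kinase-binding domain of the MAP kinase phosphatases. Dusp3 (the phosphatase VHR) read 9.18 and 9.42 on the wild-type day arrays and 8.89 and 8.82 on the wild-type night arrays, and in Gpr176-/- mice 9.21 and 9.39 by day and 8.84 and 8.83 by night. Its difference over both genotypes was -0.46 ± 0.0611. The day arrays of either genotype lay further apart than the night arrays. Dusp14 was between 9.42 and 9.57 on the CT6 arrays and between 9.24 and 9.38 on the CT18 arrays, a difference of -0.21 ± 0.0417. Dusp26, a phosphatase of neural tissue, was between 9.34 and 9.41 at CT6 and between 9.11 and 9.24 at CT18, a difference of -0.19 ± 0.0370. These were the smallest of the 10 differences.

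Dusp15, which is enriched in oligodendrocytes, read 7.57 and 7.34 on the wild-type day arrays and 7.26 and 7.11 on the wild-type night arrays, and in Gpr176-/- mice 7.37 on both day arrays and 6.94 and 7.02 by night. Its difference over both genotypes was -0.33 ± 0.0583. Of 11 oligodendrocyte markers tested, 1 fell and 0 rose, against 6.79% and 10% of all genes. The estimate was below 0 for 8 of the 11, as for 5665 of 12452 genes, with a median of -0.08. The marker that fell was Opalin, a myelin protein (-0.66 ± 0.0682, limma adjusted p = 0.000203). The mean level of the list was 9.40 and 9.51 (wild type, day), 9.48 and 9.16 (wild type, night), 9.45 and 9.30 (Gpr176-/-, day) and 9.18 and 9.25 (Gpr176-/-, night). The part of these cells in the Dusp15 difference was not tested.

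In single genotypes the count of phosphatases past the limma threshold was 8 in wild type (1 higher, 7 lower), against 6.94% of genes tested (4.4% higher, 2.54% lower), and 7 in the knockout (1 higher, 6 lower), against 7.16% (3.63% higher, 3.53% lower). Nothing is read from these counts either. The genes outside the count were Dusp6 in both genotypes, Dusp15 in wild type (-0.27 ± 0.0824), and Dusp14 (-0.17 ± 0.0590) and Dusp26 (-0.18 ± 0.0523) in the knockout. Every difference had the same sign in both genotypes. The wild-type count was lower in each fit that left out 1 array, of either genotype. The knockout count was lower in each fit that left out a knockout array, and unchanged without a wild-type array. In each of these fits 1 array stood for a group. With all 8 arrays the wild-type count was 6 with values as deposited, with each array centred on its median, and with no filter on low values. By point estimate 7 of the 10 differences were larger in size in the knockout, and the share of all genes for which this held was not counted. The median size over all genes tested was 0.0765 log2 in wild type and 0.0766 in the knockout. Nothing is read from the 7 of 10. That count was not tested, as the interaction is a test of each gene by itself.

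**Figure D2:**
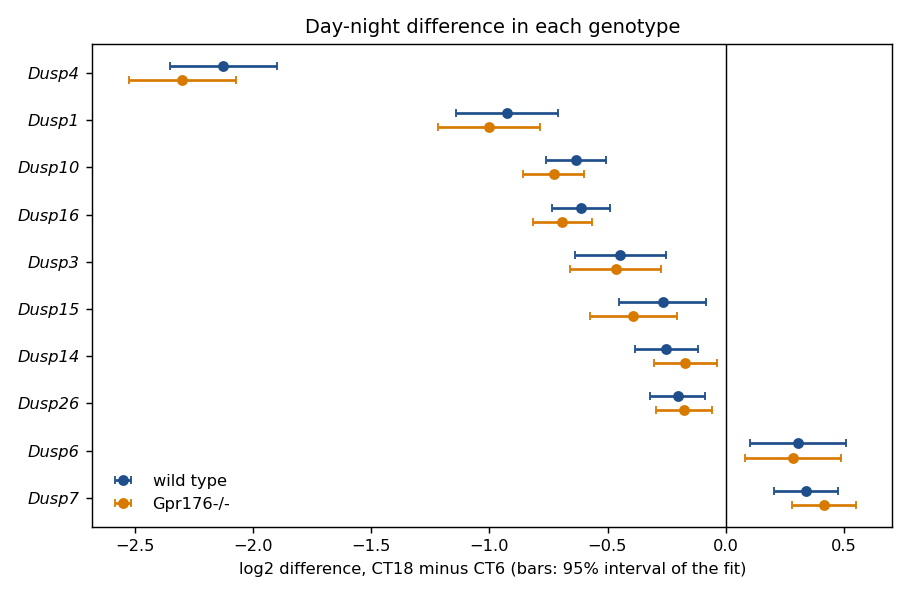
Log2 difference between CT18 and CT6 for each phosphatase in wild type (upper point) and Gpr176-/- (lower point), with bars for the 95% interval of the limma fit; genes are ordered by the difference over both genotypes. The intervals of the genotypes overlap for all 10 genes, from Dusp4 (-2.13 and -2.30) to Dusp7 (0.34 and 0.42).

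The comparison of genotypes asked whether loss of Gpr176 alters these transcripts. The genes were chosen with results of these arrays in view, and the written rule names no contrast, and whether genotype values entered that choice is not recorded. None of the 10 passed the limma test over both times (adjusted p from 0.387 to 0.977), where 0.0241% of genes tested passed, nor at CT6 or at CT18 alone (lowest adjusted p = 0.368), where 0.00803% passed in each. The differences over both times ran from -0.15 ± 0.0583 for Dusp15 to 0.09 ± 0.0417 for Dusp14. At an unadjusted p under 0.05 in limma there was 1 of the 10 over both times, 1 at CT18 and 0 at CT6, against 1496, 1558 and 528 of all genes. That gene was Dusp15, with -0.21 ± 0.0824 at CT18 (limma adjusted p = 0.368). The estimate was also below 0 for all 11 oligodendrocyte markers over both times, as for 6983 of 12452 genes, with a median of -0.09 and 0 past the threshold, and their part in the Dusp15 value was not tested. The estimates of largest size at CT6 were 0.14 ± 0.101 for Dusp4 and -0.12 ± 0.0605 for Dusp7 (limma adjusted p = 0.975 for each). Over all 8 arrays, the knockout and wild-type arrays overlapped for each of the 10, and did not for 4.22% of genes tested.

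The day-night change itself differed between genotypes by between -0.17 ± 0.142 for Dusp4 and 0.08 ± 0.0835 for Dusp14. No interaction passed in limma, either among the 10 (adjusted p from 0.947 to 0.987, with 0 at an unadjusted p under 0.05) or among all genes tested (0%, with 605 at an unadjusted p under 0.05). The 95% interval for Dusp4 ran from -0.49 to 0.15 and that for Dusp7 from -0.11 to 0.27. The night arrays of Dusp4 lay under the level filter in both genotypes, so its estimate rests in part on levels that low. Over all 10, the bounds lay between -0.49 and 0.27. These intervals rest on 2 arrays a group and do not show that the genotypes are alike.

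**Figure D3:**
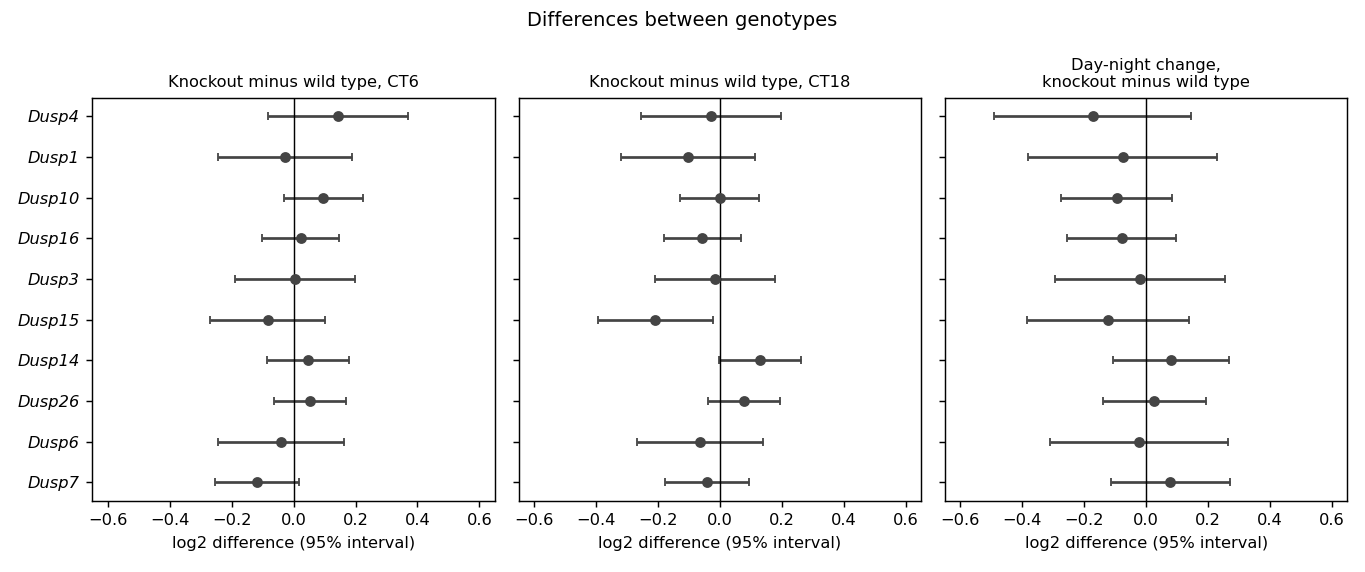
Log2 difference between Gpr176-/- and wild type at CT6, at CT18, and for the CT18-minus-CT6 change, for each phosphatase; points are limma estimates and bars their 95% intervals. In the panel for CT18 the interval of Dusp15 (-0.21) lies below 0 before adjustment, and in the right panel all 10 intervals include 0. The middle and right panels draw on the night arrays, which for Dusp4 lay under the level filter.

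The other dual-specificity phosphatases on the array were set beside the 10. This list and the 3 that follow were drawn up with results of these arrays known. Of 16 genes looked at, 10 were tested, 2 rose and 0 fell at CT18 over both genotypes, with a median of 0.02; of all genes 10% rose and 6.79% fell. Dusp19, whose product acts on the JNK pathway (0.32 ± 0.0627, limma adjusted p = 0.0076), and Dusp11, a phosphatase of RNA (0.21 ± 0.0391, limma adjusted p = 0.00656), rose. Both passed in wild type (0.38 and 0.29) and neither in the knockout (0.26 and 0.12), and their interactions did not pass (limma adjusted p = 0.950 and 0.944). Dusp18 gave -0.14 ± 0.0482 (limma adjusted p = 0.0790), Dusp23 0.10, Dusp22 0.07, Dusp28 0.04, Dusp12 -0.02 and the pseudophosphatase Styx -0.05, and none of these passed. Dusp2, Dusp9, Dusp13, Dusp21, Dusp27 and Styxl1 lay under the filter.

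Of the MAP kinases and the kinases that activate them, 19 were tested, 3 rose and 0 fell at CT18, with a median of 0.01, against 16.8% of all genes called. The 3 were Mapk14, the main p38 kinase (0.47 ± 0.0368, limma adjusted p = 2.92e-05), Map2k1, the ERK activator MEK1 (0.29 ± 0.0393, adjusted p = 0.00102), and Mapk7, the kinase ERK5 (0.16 ± 0.0401, adjusted p = 0.0227). Among the JNK genes, Mapk8 gave -0.09, Mapk9 0.10 and Mapk10 -0.05, and none passed.

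Feedback inhibitors and transcriptional targets of ERK had 1 of 16 tested members higher and 7 lower, against 10% and 6.79% of all genes, with a median of -0.07. Fos, an immediate early transcription factor, fell (-0.66 ± 0.0621, limma adjusted p = 0.000104), as did Spred3, an inhibitor of the Ras-ERK pathway (-0.63 ± 0.0550), Fosl2, a Fos relative (-0.47 ± 0.0406), and Spry4 (-0.35 ± 0.0609) and Spred2 (-0.29 ± 0.0647), which are inhibitors of growth factor signalling. Egr1, another immediate early factor, rose (0.37 ± 0.0465, limma adjusted p = 0.000683). Egr1 was between 6.74 and 6.88 on the CT6 arrays, around the filter, and between 7.12 and 7.28 at CT18. Egr1 was thus the only gene of the list to pass as higher at night, against 7 that passed as lower. Among the phosphatases, treated as chosen with this difference known, Dusp6 was higher at night and Dusp4 and Dusp1 were lower. Spry2 (-0.08), Etv1 (0.07) and Arc (-0.06) did not pass.

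A list drawn up as targets of CREB, which also held the CREB coactivator Crtc1, had 14 tested genes. Of these, 10 fell and 3 rose over both genotypes, with the same counts in either genotype and a median of -0.61. Of all genes 16.8% were called over both genotypes, 6.94% in wild type and 7.16% in the knockout. The list is no independent evidence of its direction. Per1 (-1.72 ± 0.0501) and Per2 (-1.48 ± 0.0644), repressors of the clock, fell with Sik1, a salt-inducible kinase (-1.05 ± 0.0384), Nr4a1, an orphan nuclear receptor (-1.11 ± 0.0535), and the phosphodiesterase gene Pde10a (-0.75 ± 0.0370). Nfil3, a repressor of D-box genes, rose (0.84 ± 0.0527). Limma adjusted p-values of these 6 ran from 4.3e-08 for Per1 to 6.4e-06 for Nfil3. The difference of Dusp1 lay between those of Nr4a1 and the list's median, and that of Dusp4 lay outside the list's range. In none of the 4 lists did a gene pass the limma test of genotype, over both times, at CT6 or at CT18, or the interaction. At an unadjusted p under 0.05 the other phosphatases had 2 genes over both times, 0 at CT6, 2 at CT18 and 0 in the interaction, and the kinases 0, 0, 1 and 0. In the same order the ERK list had 0, 1, 2 and 3, the CREB list 1, 0, 3 and 2, and all 12452 genes 1496, 528, 1558 and 605.

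**Figure D4:**
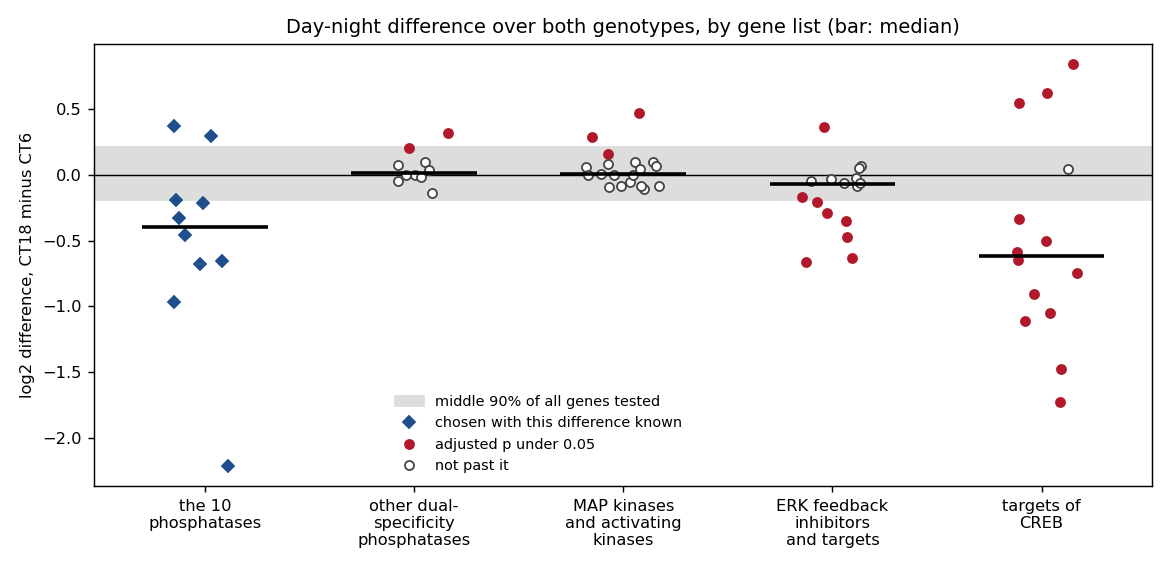
Log2 difference between CT18 and CT6 over both genotypes, 1 point per gene, for the 10 phosphatases (diamonds) and 4 lists of related genes. The 10 are treated as chosen with this difference known. Filled circles passed an adjusted p of 0.05 in limma and open circles did not. The bar is the median and the grey band holds the middle 90% of all genes tested (-0.19 to 0.21). The median is -0.39 for the 10, 0.02 for the other phosphatases, 0.01 for the kinases, -0.07 for the ERK list and -0.61 for the CREB list.

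The genes whose course over the 8 arrays was most like that of a phosphatase were found as those with the smallest root mean square difference after each gene was centred on its mean. For Dusp4 these were Rasl11b, a Ras-like GTPase (0.154 log2), Ciart, a repressor within the clock (0.163), and Per1 (0.262). For Dusp1 they were C1ql3, a secreted synaptic protein (0.0550), Nr1d2, the nuclear receptor REV-ERBβ (0.0881), and St3gal1, a sialyltransferase (0.0938). Dusp10 was closest to Fabp7, which encodes an astrocytic lipid carrier (0.0491), then to Dusp16 (0.0548) and to Styk1 (0.0562). Of 9 astrocyte markers tested, 1 rose and 1 (Fabp7) fell at CT18, against 10% and 6.79% of all genes. The estimate was above 0 for 6 of the 9, with a median of 0.01. The part of astrocytes in the Dusp10 difference was not tested. Dusp16 was closest to Pros1 (0.0451), Styk1 (0.0453) and Zim1 (0.0456). The measure describes 8 arrays that share a large day-night difference, and no relation between the genes was tested.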

How the data were processed

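The authors deposited 1 table of log2 values for 28853 probe sets on 8 arrays; background correction, summarisation and normalization were not given in the sources used here. Because the arrays' lower quartiles differed by up to 0.139 log2, more than the limit of 0.1, the columns were quantile normalized in limma 3.58.1 (R 4.3.3), a step that removes any shift common to most genes. Probe sets were named from the platform's annotation, 21789 of them with 1 symbol, 1621 with several and 5443 without a name here, and 21698 were matched by Entrez number to RefSeq (GRCm38.p6). The brightest probe set per gene was used, and genes with a mean under the 40th percentile (log2 6.82) were left out. A model with a mean per group was fitted to all 12452 remaining genes and all 8 arrays (4 residual degrees of freedom, 5.58 prior), with Benjamini-Hochberg adjustment over these genes and a threshold of 0.05. The fit was tested on simulated data with independent normal noise for each gene. Those data held no difference in tissue content between pools, so the test cannot speak to it. Values after ± are standard errors of the fit, and the number of arrays limits the precision. The members and lists were chosen with earlier results of these data known. Named by rule were the 10 members, all listed phosphatases, up to 6 called genes per list by smallest p, and the 3 genes most alike to each member; further list members that did not pass, and Opalin among the cell type markers, were named after their values were seen. Promoter windows are RefSeq's for GRCm38.p6; protein sequences were not used here. Alternatives covered normalization, filter, probe choice, variance trend, replicate letter and each array left out.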

Additional observations from a re-analysis of the deposited data

How the results depend on the processing

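Over 17 alternatives, 0 of 491 day-night differences of a phosphatase changed sign, 40 no longer passed and 7 newly passed; 45 of 628 genotype differences changed sign, and 0 passed. All 10 phosphatases passed over both genotypes under each alternative that tested them, except Dusp6 in the fit without the 2 arrays highest in leptomeningeal genes (chosen after seeing the data), where 5 passed in wild type and the genes called fell to 1221 over both genotypes, 350 in wild type and 420 in the knockout. A filter at the 60th percentile left 7 of the 10, without Dusp4, Dusp6 and Dusp15. In wild type, 6 phosphatases passed with values as deposited, with median centring and with no filter, against 8 as reported. With median centring 590 genes were called in the knockout, against 891 as reported. With 1 array left out the phosphatases called in wild type numbered 4 to 7 and the genes called 315 to 842 in wild type (864 as reported; 394 and 367 when day array A or B was left out, 315 and 492 for night array A or B), 382 to 799 in the knockout (891 as reported; 438, 511, 382 and 390 without its arrays in the same order) and 1378 to 1807 over both (2096 as reported), the lowest without knockout at CT18 B. For knockout against wild type over both times, 3 genes were called as reported, 6 as deposited, 5 with median centring, 1 with no filter, 6 with the 60th percentile filter, 7 with a variance trend and 1 to 4 with 1 array left out (1 when either wild-type day array, wild-type night array B, or array A of a knockout group was left out). At CT6, 1 gene became 2 as deposited, with median centring and with the replicate block, and at CT18 1 became 3 with median centring or the stricter filter. With the letter as a replicate block, 7 phosphatases in place of 8 passed in wild type, 7 in the knockout and 10 over both. The labels do not say that the letters pair the pools, so the letter was left out of the main fit. Deviations of the A arrays correlated between -0.22 and 0.26 over genes, which cannot decide whether pools were paired.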

Other observations

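The genes closest to the remaining members were found by the same root mean square difference of centred log2 values. The measure is not scaled, so by construction it favours genes with a day-night difference of like size and direction. Dusp6 was closest to Xxylt1 (0.0313), Dkc1 (0.0355) and Stat2 (0.0416), and Dusp7 to Hspa2 (0.0405), Gfra2 (0.0410) and Msi1 (0.0417), all of them higher at CT18. Dusp3 was closest to Slc25a16 (0.0609), Inpp5f (0.0635) and Pcgf5 (0.0648), Dusp15 to Rhobtb2 (0.0304), Myo16 (0.0647) and Rfx5 (0.0665), Dusp14 to Elp5 (0.0258), Napa (0.0278) and Agtrap (0.0335), and Dusp26 to Eif4b (0.0227), Hsd17b12 (0.0229) and Rad18 (0.0270), all of them lower at CT18.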
